A study of Mus musculus with 24 samples.

Results

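Transcript levels in wild-type cortical fiber cells of the mouse lens were compared with those in wild-type lens epithelia, over all genes counted. The comparison used the 4 libraries titled WT Fibers and the 4 titled WT Epithelia, 8 of the 24 libraries of the series, chosen by their titles. All 8 came from C57BL/6 mice of WT genotype with the treatment given as None, and the groups differed in the cell type given, cortical fiber cells or epithelia. The other 16 libraries came from the same tissues of LEGSKO mice, a strain whose lenses are deficient in glutathione, either untreated or treated with BSO (buthionine sulfoximine), an inhibitor of glutathione synthesis. They enter only where they are named. The labels give no age, sex or batch, and whether each library is a separate animal is not stated, so p-values measure the spread between these libraries, which may be technical. The series' text states that samples were compared within a tissue, so the contrast described here is not among the comparisons it names.

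The lens is a layer of epithelial cells over a mass of elongated fiber cells, and new fibers form throughout life from epithelial cells near the lens equator. A cell that becomes a fiber leaves the cell cycle, elongates, fills with crystallins, builds fiber-specific junctions and a beaded filament cytoskeleton, and then loses its nucleus, mitochondria and other organelles. Cortical fibers are the outer ones, which include cells that still make RNA.

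The labelled tissues were first checked against their defining genes. CPM below are counts per M (mega) of library size after TMM scaling, and values are given in library order 1 to 4. The 7 fiber markers reported here (Mip, Lim2, Bfsp1, Bfsp2, Gja3, Dnase2b and Crygs) were higher in fibers and all 4 epithelial markers were lower, with 35.5% of all tested genes called higher in fibers and 39.3% called lower. Foxe3, a forkhead factor of the lens epithelium, stood at 181, 199, 127 and 143 CPM in epithelia and at 1.69, 3.198, 8.92 and 4.26 CPM in fibers. Gja1, the connexin of epithelial gap junctions, stood at 689, 692, 767 and 761 CPM in epithelia and at 3.53, 11.7, 18.7 and 5.91 CPM in fibers. The growth factor receptor Pdgfra was at 167 to 315 CPM in epithelia and 5.48 to 13.7 CPM in fibers, and E-cadherin, Cdh1, at 278 to 385 and 8.45 to 24.3 CPM. For these 4 genes every fiber library lay far below every epithelial library, and none was at 0 in fibers. Fiber library 3 had the highest of the 4 fiber values for each of them. Such differences are per amount of RNA: in bulk samples, fewer cells of a type and less RNA per cell cannot be told apart.

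Mip, the water channel that is the most abundant protein of fiber membranes, stood at 1558, 1424, 1452 and 1413 CPM in epithelia and at 31910.2, 20257, 19416 and 19532 CPM in fibers. It was 15.6-fold higher in fibers (log2 fold change 3.96 ± 0.19 SE, adjusted p = 6.30e-09 from edgeR's quasi-likelihood F test, adjusted over all tested genes by Benjamini-Hochberg as is every adjusted p of a gene below). Lim2, a tetraspan protein of fiber junctions, rose 30.1-fold from 197 ± 24.5 to 5938 ± 1366 CPM (SD, n = 4). The beaded filament proteins Bfsp1 and Bfsp2 rose 31.4-fold, to 19860.2 ± 7487 CPM, and 20.8-fold, to 8506 ± 1175 CPM. The groups did not overlap for any of these 7 fiber markers. Gja3, the fiber connexin Cx46, rose 3.302-fold from 442 ± 33.2 to 1460.2 ± 83.9 CPM (adjusted p = 1.31e-08).

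**Figure D1:**
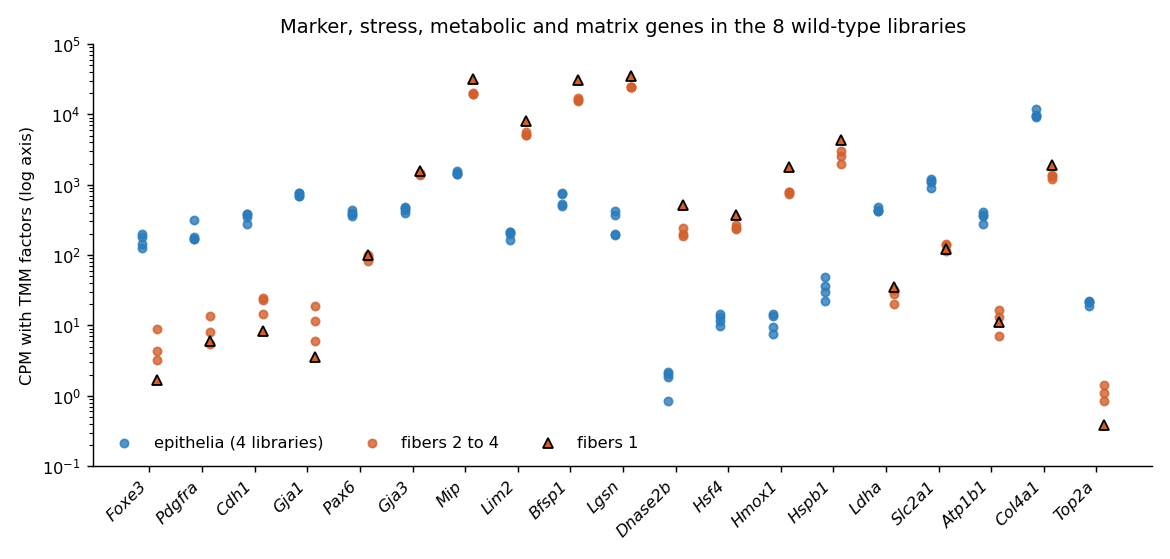
Levels of marker, stress, metabolic and matrix genes in each wild-type library (CPM with TMM factors, log axis). Circles are epithelial libraries 1 to 4 (blue) and fiber libraries 2 to 4 (orange), and the triangle is fiber library 1. The 4 epithelial markers (Foxe3, Pdgfra, Cdh1 and Gja1) fall by more than a decade from blue to orange, and fiber markers and the stress genes rise, Mip from 1413 to 1558 CPM to 19416 to 31910.2 CPM.

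Total counts were 20.6 to 24.2 M in epithelia and 25.7 to 30.01 M in fibers. In all, 10767 of 14397 tested genes passed an adjusted p of 0.05 (74.8%), 5109 higher in fibers and 5658 lower. Of these, 2922 were at least 2-fold higher (20.3% of genes tested) and 3184 at least 2-fold lower (22.1%). The split between higher and lower depends on how library sizes are scaled. With total counts alone, 1641 genes were higher (11.4%) and 10164 lower (70.6%), and the median of all genes moved by -1.10 on the log2 scale, from -0.10 to -1.20. With upper quartile scaling 4289 were higher and 6783 lower, a shift of -0.21. Under 5 scalings, 8301 of the called genes had the same sign throughout and 2466 did not, 279 of them at least 2-fold. TMM factors were 1.46 to 1.51 in epithelia, 0.471 in fiber library 1 and 0.746 to 0.781 in the other fiber libraries. With crystallins left out of library sizes and factors the counts were 5114 and 5654, close to those with crystallins in. A direction that flips with total counts is named as such below, for the genes followed through each scaling. Counts of list members below are to be read against all tested genes. With TMM factors 35.5% of these were higher and 39.3% lower, and with total counts 11.4% and 70.6%.

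**Figure D2:**
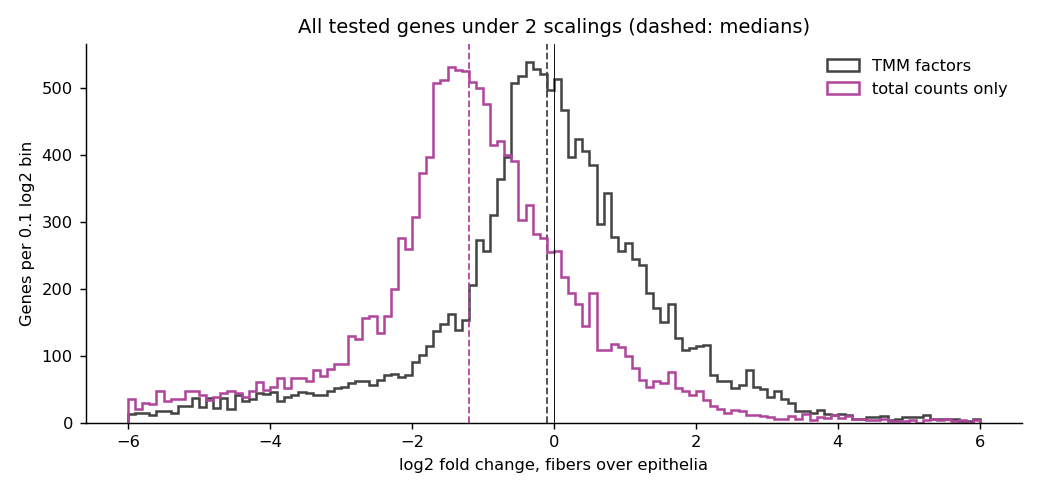
Distribution of the log2 fold change of fibers over epithelia for the 14397 tested genes, with TMM factors (dark) and with total counts alone (purple), in bins of 0.1. The dashed medians lie at -0.10 and -1.20: the shape is similar and the whole distribution is displaced.

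Crystallins, the soluble structural proteins that give the lens its refractive power, made up 14.7%, 12.3%, 12.2% and 10.8% of counts in epithelial libraries 1 to 4 and 50.1%, 28.3%, 29.6% and 27.6% in fiber libraries 1 to 4. Every fiber library was above every epithelial one, by 21.4 percentage points on average (exact permutation test, two-sided p = 0.0286, the smallest that 4 against 4 allows, and 0.0286 adjusted over 3 shares). Without fiber library 1 the mean fiber share was 28.5% ± 1.004 and the difference 15.98 points. Alpha crystallins, which are also chaperones, took 7.77% ± 0.868 in epithelia and 10.6% ± 2.69 in fibers. Beta crystallins took 3.87% ± 0.568 and 14.99% ± 1.85, and gamma S, the gamma crystallin of the outer lens, 0.747% ± 0.115 and 2.58% ± 0.463. The gamma crystallins A to F and N together took 0.253%, 0.0870%, 0.0928% and 0.0449% in epithelial libraries 1 to 4 and 14.5%, 2.53%, 3.51% and 2.39% in fiber libraries 1 to 4. Library 1 had the highest share in each tissue, and in fibers it stood well above the other 3. In fiber library 1, 13 genes held 50% of the counts, against 78 to 92 in the other fiber libraries and 475 to 562 in epithelia.

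**Figure D3:**
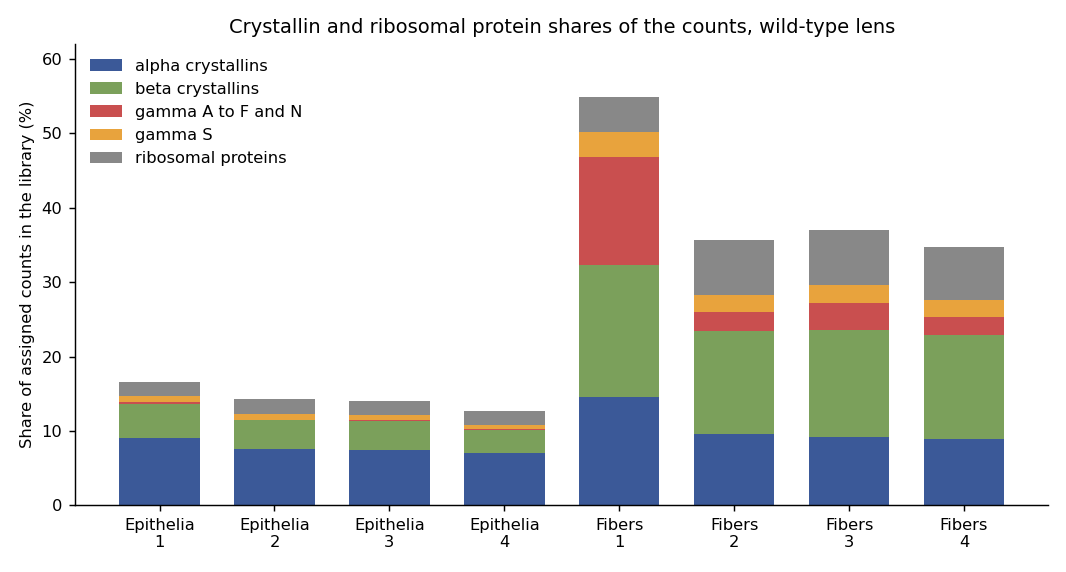
Share of each library's assigned counts (%) taken by crystallin classes and by cytosolic ribosomal proteins, stacked, for the 8 wild-type libraries. Fiber library 1 stands at 50.1% crystallin, with 14.5% from gamma A to F and N, and has the lowest ribosomal protein share of the fiber libraries, at 4.69%.

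Of the 16 crystallin genes 15 were called higher in fibers and Crygn was not called. Their median log2 fold change was 3.61, against -0.10 for all genes. Since crystallins dominate the totals, levels are given as shares of counts. Cryaa, the alpha A subunit and the gene with the most counts in both tissues, took 6.98, 6.12, 5.95 and 5.59% in epithelia and 12.5, 8.43, 8.104 and 7.92% in fibers (log2 1.82 ± 0.30 with TMM factors and 0.59 with total counts). Cryab, the alpha B subunit, took 2.04, 1.46, 1.52 and 1.43% in epithelia and 2.05, 1.16, 1.07 and 1.06% in fibers. The shares of Cryab overlapped between tissues. It was called higher with TMM factors (log2 0.99 ± 0.35, adjusted p = 0.0238), and stood at -0.27, not called, with total counts. Cryab also lost the call without epithelial library 2, 3 or 4 (adjusted p = 0.0543 to 0.0638). Crybb2, the leading beta crystallin, rose from 2.05% ± 0.168 to 7.798% ± 0.504 of counts, and Cryba4 from 0.205% ± 0.0498 to 1.42% ± 0.178 (log2 3.99 ± 0.30, the largest of the beta crystallins). Per kilobase of exon, Cryaa had the highest share in fibers (4.46% per kilobase), Crybb2 stood at 3.88%, Crygb at 3.44% and Crygs at 2.95%. The fiber libraries ranged from 3.82% to 6.04% for Cryaa, 3.695% to 4.23% for Crybb2, 1.59% to 8.11% for Crygb and 2.63% to 3.74% for Crygs. These ranges overlapped for every pair except Cryaa and Crygs. Within each fiber library, though, Cryaa stood above Crybb2 and Crybb2 above Crygs per kilobase. Crygb was the highest of these genes in fiber library 1 and the lowest in fiber libraries 2 to 4.

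The gamma crystallins A to F had the largest fold changes of all crystallins. Crygb took 0.0878, 0.0341, 0.0355 and 0.0159% of counts in epithelia and 5.14, 1.09, 1.49 and 1.01% in fibers, a log2 fold change of 7.05 ± 0.91 that was 5.78 without fiber library 1 and 7.66 without epithelial library 1. Crygf took 0.00486%, 0.00137%, 8.60e-04% and 5.66e-04% in epithelia and 0.618, 0.0273, 0.0353 and 0.0253% in fibers. Fiber library 1 was 21.1 times the mean of fiber libraries 2 to 4 for Crygf, 10.7 times for Cryge, 7.84 times for Cryga, 6.24 times for Crygd, 4.48 times for Crygc and 4.302 times for Crygb. The log2 fold changes of Cryga, Crygc, Crygd, Cryge and Crygf were 7.58, 6.95, 7.18, 7.58 and 8.10, and without fiber library 1 they were 5.66, 5.63, 5.502, 5.27 and 4.93. Without epithelial library 1 they were 8.37, 7.67, 7.89, 8.30 and 9.15. All 6 genes were called in each of these fits. The order among them thus depended on fiber library 1: with it Crygf led, and without it Crygb did. Crygn, a member encoded on another chromosome, stood at 109.5, 30.9, 34.6 and 31.5 CPM in epithelia and 191, 30.2, 27.4 and 24.2 CPM in fibers, was not called (log2 0.38 ± 0.67, adjusted p = 0.621), and turned to -0.89 without fiber library 1 and to -1.001 with total counts. The gamma A to F coding sequences are close copies, so how reads were split among them is uncertain.

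**Figure D4:**
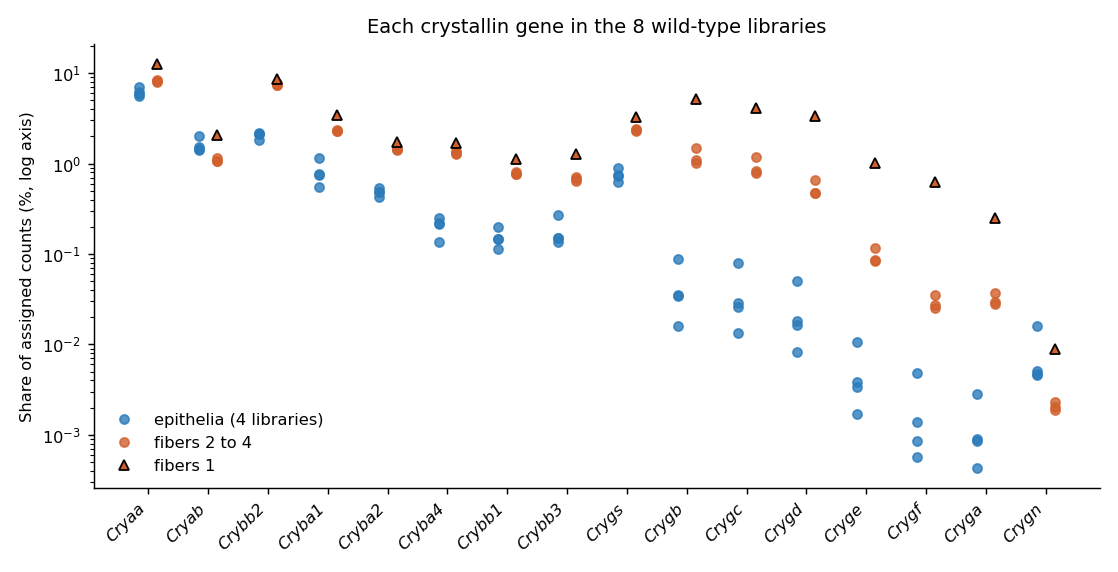
Share of counts of each crystallin gene in the 8 wild-type libraries (%, log axis). Circles are epithelia (blue) and fiber libraries 2 to 4 (orange), and the triangle is fiber library 1, which lies above the other fiber libraries for all 16 genes, by 1.13 times their mean for Crybb2 and by 21.1 times for Crygf.

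The 120 bases upstream of the RefSeq start of the 6 genes that rose together, and of Crygn, which was not called, are shown because the 6 share stretches of letters. Sequences are from the RefSeq promoter table (GRCm38.p6), 5′ to 3′ on the gene's strand, ending 1 base before the start in that table. The RefSeq gene span of Cryge, which reaches 65051816, extends beyond that start, so its window lies inside the span. Capitals mark TATATA and CTTTTGTG on either strand, 2 strings chosen after the sequences had been looked at. They do not overlap each other. GCAGCA was searched as well and is not marked: 4 of the 7 windows (Crygb, Crygc, Crygd and Cryge) and 9.24% of all promoters of the table held it.
Cryga, chr1:65103364-65103483, minus strand: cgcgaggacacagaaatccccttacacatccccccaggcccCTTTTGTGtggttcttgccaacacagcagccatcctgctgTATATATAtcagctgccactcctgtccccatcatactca
Crygb, chr1:65082291-65082410, minus strand: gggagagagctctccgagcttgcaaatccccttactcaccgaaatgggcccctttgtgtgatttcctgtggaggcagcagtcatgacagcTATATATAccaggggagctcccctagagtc
Crygc, chr1:65073533-65073652, minus strand: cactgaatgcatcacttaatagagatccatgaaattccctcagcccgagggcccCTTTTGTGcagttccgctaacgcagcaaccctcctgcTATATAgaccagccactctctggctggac
Crygd, chr1:65063441-65063560, minus strand: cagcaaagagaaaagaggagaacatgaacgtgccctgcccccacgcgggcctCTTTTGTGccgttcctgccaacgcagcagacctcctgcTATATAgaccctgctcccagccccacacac
Cryge, chr1:65051164-65051283, minus strand: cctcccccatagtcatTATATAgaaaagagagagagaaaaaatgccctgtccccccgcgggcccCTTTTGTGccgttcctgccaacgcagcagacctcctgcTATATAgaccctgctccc
Crygf, chr1:65926402-65926521, plus strand: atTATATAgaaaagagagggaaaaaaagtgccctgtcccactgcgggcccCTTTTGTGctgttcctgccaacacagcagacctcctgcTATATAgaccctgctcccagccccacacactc
Crygn, chr5:24757849-24757968, minus strand: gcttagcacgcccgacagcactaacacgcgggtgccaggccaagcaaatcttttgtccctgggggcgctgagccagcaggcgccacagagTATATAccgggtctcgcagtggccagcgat
All 7 windows held TATATA, and 5 of them held CTTTTGTG: those of Cryga, Crygc, Crygd, Cryge and Crygf. The TATATA string nearest to the start ended 13 to 32 bases upstream of it. Among the 32851 promoters of the table, 2.51% held TATATA in the same window and 0.563% held CTTTTGTG, and among the 14334 promoters of tested genes 1.09% and 0.363%. For the 424 promoters of genes called at least 8-fold higher in fibers the shares were 5.19% and 1.65%, and for the 1070 promoters of genes called at least 8-fold lower, 1.59% and 0.280%. A match of letters is a description and not a binding site. The set at least 8-fold higher includes the 6 gamma crystallins, whose windows were looked at before the strings were chosen. Of its 424 promoters 7 held CTTTTGTG, and 5 of these were gamma crystallin promoters. TATATA was held by 22, of which 6 were gamma crystallin promoters. Cryga to Cryge lie within chromosome 1, 65048555 to 65103363, Crygf at 65926522 to 65928311 of the same chromosome and Crygn on chromosome 5, 24751002 to 24757848.

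Among 24 tested genes of fiber membranes, junctions and the beaded filament, 16 were higher in fibers and 6 lower, with a median log2 of 1.03 (11 and 10 with total counts). Nrcam, a cell adhesion molecule of the immunoglobulin family, rose 8.53-fold from 165 ± 21.6 to 1410.3 ± 60.9 CPM (adjusted p = 8.50e-10). N-cadherin, Cdh2, rose 1.604-fold (309 ± 15.1 to 495 ± 26.2 CPM), and reversed to -0.42 with total counts. The water channel Aqp5 rose 5.31-fold, and Aqp1, the channel of the epithelium, went from 269.7, 317, 218 and 375 CPM to 2.23, 15.3, 28.9 and 3.499 CPM. The fiber values of Aqp1 spread more than 10-fold, with libraries 2 and 3 high and libraries 1 and 4 low, and its log2 change of -4.54 became -5.32 without fiber library 3.

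The soluble proteins and enzymes of fibers gave 9 higher and 3 lower genes of 14 tested, with a median of 2.81. Lgsn, lengsin, a lens protein related to glutamine synthetase, stood at 190.1, 421, 366 and 201 CPM in epithelia and 35350.1, 24131, 24714 and 24078 CPM in fibers, 91.9-fold higher. Apart from crystallins it had the most counts of any gene in fibers, 1.805% ± 0.0966 of counts. Birc7, an inhibitor of apoptosis, rose 123-fold (log2 6.94 ± 0.42), and Lctl, a relative of lactase, 43.7-fold. The 3 that were lower were Aldh1a1, the retinaldehyde dehydrogenase (1348 ± 113 to 166 ± 33.9 CPM), the lactate dehydrogenase subunit Ldhb (28.6-fold lower) and Crybg3, a relative of the beta and gamma crystallins outside the lens families (2.27-fold lower).

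Of 35 tested genes for organelle clearance and denucleation, 20 were higher and 8 lower, with a median of 0.71. With total counts 8 were higher and 19 lower, where 11.4% of all tested genes were higher and 70.6% lower. Dnase2b, the acid nuclease that degrades fiber DNA, stood at 2.06, 1.87, 2.205 and 0.835 CPM in epithelia and at 519.8, 188, 240.1 and 198 CPM in fibers (log2 7.36 ± 0.43, adjusted p = 3.11e-08). Fiber library 1 was the highest, and without it the log2 change was 6.94. Hsf4, the heat shock factor that is known to activate Dnase2b in the lens, rose 22.8-fold, from 12.3 ± 2.09 to 279.6 ± 62.2 CPM. Plaat3, a phospholipase known to act on organelle membranes in fibers, rose 9.04-fold. The autophagy genes Gabarapl1 and Sqstm1 rose 10.4-fold and 3.53-fold, and Bnip3l, a mitophagy receptor, 2.47-fold, a call lost with total counts (log2 0.19). The lysosomal protease Ctsb fell, from 334 ± 35.3 to 108 ± 4.09 CPM (adjusted p = 1.89e-08).

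RNA-binding and RNA granule proteins of the lens gave 13 higher genes and none lower of 15 tested, with a median of 1.09. With total counts 7 were higher and 6 lower, where 11.4% of all tested genes were higher and 70.6% lower. Tdrd7, a granule protein linked to cataract, rose 11.4-fold from 231 ± 34.8 to 2631 ± 536 CPM. Pabpc1, the cytoplasmic poly(A)-binding protein, rose 6.88-fold, Caprin2 6.78-fold and Rbm24 3.95-fold.

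Lens transcription factors were split, with 7 higher and 14 lower of 26 tested (median -0.26) and 1 and 21 with total counts, where Hsf4 was the 1 that stayed higher. Pax6, the master regulator of eye development, stood at 359.6, 381, 393 and 443 CPM in epithelia and 99.2, 94.1, 98.7 and 81.3 CPM in fibers, and Tfap2a fell 3.404-fold. Prox1 rose 1.95-fold (177 ± 29.3 to 345 ± 24.003 CPM), and Maf 1.85-fold (309.6 ± 20.2 to 574 ± 165 CPM), but these 2 factors of fiber differentiation had log2 changes of -0.15 and -0.28 with total counts. Sox1 rose 2.14-fold and Sox2 1.42-fold, and they stood at -0.02 and -0.56 with total counts. Prox1, Maf and Sox1 were not called in either direction with total counts.

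Genes of the lens epithelium fell as a group, 21 of 31 lower and 5 higher, with a median of -2.08. Igfbp5, a binding protein of insulin-like growth factors, went from 384, 155, 240.5 and 161 CPM to 2.23, 2.58, 1.51 and 0.757 CPM. Apoe, a lipid carrier, fell 36.8-fold, and Clu, a secreted chaperone with the fifth most counts in epithelia, 2.71-fold. Fabp5, a fatty acid carrier placed in that list, went against it, from 307 ± 86.3 to 11505 ± 5642 CPM, with fiber library 1 highest at 19952. The Wnt antagonist Sfrp1 (2.904-fold) and the laminin receptor subunit Itga6 (2.22-fold) were also higher in fibers, the second not called with total counts (log2 0.05).

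Cell cycle genes were lower in fibers for 33 of 40 and higher for 1, with a median of -1.48. Top2a, the topoisomerase of dividing cells, stood at 22.5, 21.8, 21.5 and 18.7 CPM in epithelia and 0.384, 1.095, 1.41 and 0.851 CPM in fibers, and Mki67 fell 20.9-fold. The 1 that rose was Gmnn, geminin, an inhibitor of replication licensing, at 0.707 to 2.33 CPM in epithelia and 9.95 to 14.7 CPM in fibers. Of 16 genes for cell cycle exit, 7 were higher and 3 lower. With total counts 3 were higher and 10 lower, where 11.4% of all tested genes were higher and 70.6% lower. Cdkn1c, the inhibitor p57, rose 5.77-fold from 72.97 ± 9.52 to 421 ± 28.7 CPM, and Cdkn2b 3.56-fold. Cdkn1b, the inhibitor p27, was not called (65.9 ± 3.77 and 59.01 ± 6.59 CPM, log2 -0.16 ± 0.09, adjusted p = 0.136). The antiproliferative gene Btg1 fell 15.7-fold.

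Signalling pathways were next described by role. Among FGF receptors and their feedback genes 10 of 24 were higher and 10 lower, near the shares of all tested genes. The receptor Fgfr1 was slightly lower (182 ± 27.2 to 143 ± 7.11 CPM, adjusted p = 0.0115). Fgfr2 and Fgfr3 were 1.29-fold and 1.59-fold higher, and reversed to -0.72 and -0.42 with total counts, where Fgfr3 was not called. Of the feedback inhibitors, Spry1 rose 7.67-fold and Spry2 3.72-fold, while Il17rd fell 14.8-fold and the phosphatase Dusp6 3.55-fold. The target Etv5 rose 2.29-fold, a call lost with total counts (log2 0.10).

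Notch pathway genes were lower for 13 of 19 and higher for 3 (median -1.82). The receptor Notch2 stood at 239.9, 307, 304 and 266 CPM in epithelia and 7.45, 14.5, 18.1 and 9.93 CPM in fibers. Notch1 fell 4.003-fold and the target Hes1 15.1-fold. Jag1, the ligand displayed by fibers, rose 1.76-fold and stood at -0.26, not called, with total counts. The receptor-cleaving protease Adam10 rose 3.47-fold. In the Wnt list 14 of 25 were lower and 6 higher. The receptors Fzd1 and Fzd2 fell 21.5-fold and 14.7-fold and the target Axin2 2.399-fold, while the ligand Wnt7a rose 4.202-fold. The ligand Wnt7b was 1.95-fold higher, and -0.14 on the log2 scale with total counts. In the BMP and TGF-beta list 17 of 27 were lower and 5 higher. The activin subunit Inhba fell 26.5-fold and the target Id3 12.7-fold, and the ligand Tgfb3 and the mediator Smad1 rose 7.03-fold and 3.95-fold.

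Genes of the lens capsule, the basement membrane around the lens, were lower for 28 of 30 (median -1.63). With total counts all 30 were lower, where 70.6% of all tested genes were lower. Col4a1, a collagen IV chain that made up 1.48% ± 0.16 of epithelial counts, stood at 11725, 9701, 9524 and 9065 CPM in epithelia and 1889.7, 1356, 1327 and 1221 CPM in fibers. Col4a2 fell 8.204-fold and fibronectin, Fn1, 24.5-fold. The 1 higher member was P4ha1, a collagen prolyl hydroxylase, at 0.51 on the log2 scale and at -0.64 with total counts. Of 27 integrin and adhesion genes 8 were higher and 12 lower, near the shares of all tested genes (35.5% and 39.3%). The laminin receptor subunit Itga3 fell 33.1-fold and alpha N-catenin, Ctnna2, rose 6.58-fold.

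Ion and water transport genes were lower for 26 of 35 and higher for 6, with a median of -2.17. Of the sodium pump's beta subunits, Atp1b1 fell from 353 ± 53.7 to 12.004 ± 3.95 CPM and Atp1b3 fell 8.704-fold. The chloride cotransporter Slc12a2 fell 4.62-fold. Glucose transport and glycolysis genes were lower for 25 of 33 (median -0.93). Slc2a1, the glucose transporter GLUT1, stood at 889, 1117, 1082 and 1211 CPM in epithelia and 120.5, 144, 139.7 and 114 CPM in fibers, and lactate dehydrogenase Ldha fell 15.5-fold. Of the 4 that were higher, Sord, the polyol pathway enzyme that makes fructose from sorbitol, rose 10.5-fold. Gapdh, another of them, rose 1.65-fold and reversed to -0.43 with total counts. Pgam2, also among them, was far higher in fiber library 1 than in the others (221, 19.5, 19.4 and 29.4 CPM in fibers). Its log2 change was 5.04, and 3.42 without that library, where it was still called.

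Of 45 glutathione and thiol redox genes 20 were higher and 20 lower, near the shares of all tested genes. The synthesis enzymes rose: Gss from 107 ± 13.5 to 629.9 ± 21.98 CPM, the modifier subunit Gclm 3.92-fold, and the catalytic subunit Gclc 2.34-fold (0.04 on the log2 scale with total counts). The cystine transporter Slc7a11 fell 2.57-fold. Sod1 rose 6.59-fold and catalase, Cat, 4.305-fold, while the peroxidase Gpx8 fell 23.7-fold and the quinone reductase Nqo1 4.92-fold. Hmox1, heme oxygenase, stood at 14.3, 9.403, 13.5 and 7.46 CPM in epithelia and at 1759, 729, 791 and 779.8 CPM in fibers, 90.9-fold higher. In cholesterol synthesis and uptake 16 of 30 were higher and 9 lower, and 4 and 18 with total counts. Insig1, the sterol sensor, rose 4.4996-fold, and the efflux transporter Abcg1 fell 23.2-fold, or 38.3-fold without fiber library 4.

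Chaperones rose for 24 of 32 and fell for 4, with a median of 1.05. With total counts 12 were higher and 12 lower, where 11.4% of all tested genes were higher and 70.6% lower. Hspb1, the small heat shock protein Hsp27, stood at 29.5, 48.7, 36.3 and 22.1 CPM in epithelia and at 4259, 1975, 3000.3 and 2551 CPM in fibers, 86.3-fold higher. Dnajb1 rose 25.3-fold, the constitutive chaperone Hspa8 8.17-fold and the chaperonin subunit Cct5 8.14-fold. The inducible Hspa1a and Hspa1b went the other way, 33.1-fold and 40.3-fold lower, and as near-identical copies they cannot be told apart. Unfolded protein and integrated stress response genes were higher for 15 of 28 and lower for 9. With total counts 7 were higher and 14 lower, against the same 11.4% and 70.6% of all tested genes. Ppp1r15a, the phosphatase subunit GADD34, rose 12.1-fold, Herpud1 4.77-fold and Atf4 3.44-fold, and the serine synthesis enzyme Phgdh, an Atf4 target, fell 11.7-fold.

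All 79 tested ribosomal protein genes were higher, with a median of 2.94, and 78 of them with total counts. Their share of counts was 1.93% ± 0.0828 in epithelia and 4.69%, 7.39%, 7.39% and 7.18% in fiber libraries 1 to 4 (exact permutation p = 0.0286, adjusted 0.0286). As a share of counts outside crystallins it was 2.21% ± 0.109 in epithelia and 10.03% ± 0.484 in fibers. Fiber library 1 was the lowest fiber library in both measures, and in the second it stood at 9.396% against 9.91% to 10.5% in the other 3. Rpl28 rose 14.4-fold, from 153 ± 15.8 to 2210.4 ± 99.1 CPM. Proteasome subunits were higher for 34 of 36 and lower for none (median 1.19, and 14 higher and 4 lower with total counts), with Psmc5 6.26-fold higher. Histone genes were higher for 52 of 55 (median 2.68). The list summed to 748 to 961 CPM in epithelia and 2467 to 3161 CPM in fibers. Some members were at low levels, such as H4c8 at 0.880 ± 0.244 and 8.93 ± 3.50 CPM. Reads of near-identical histone copies are of uncertain origin.

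Nuclear-encoded respiratory chain genes were higher for 72 of 81 and lower for 5, with a median of 1.58 (41 and 14 with total counts). Their share of counts was 0.470% ± 0.0274 in epithelia and 0.568%, 0.718%, 0.725% and 0.717% in fibers (exact permutation p = 0.0286, adjusted 0.0286), with no overlap. Fiber library 1 was the lowest fiber library in this share, and the highest in the share of counts outside crystallins, at 1.14% against 0.991% to 1.03% in the other 3. Cox4i1 rose 8.34-fold from 144 ± 4.19 to 1203 ± 32.9 CPM and Cox7c 13.1-fold. Lower were Ndufa4l2, a hypoxia-induced subunit (12.98-fold), and Ndufs1 (1.51-fold). Immediate early genes were lower for 11 of 18 and higher for 3. Fosl2 fell 26.2-fold, from 86.4 ± 8.38 to 3.25 ± 1.19 CPM, and Klf6 rose 4.06-fold.

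**Figure D5:**
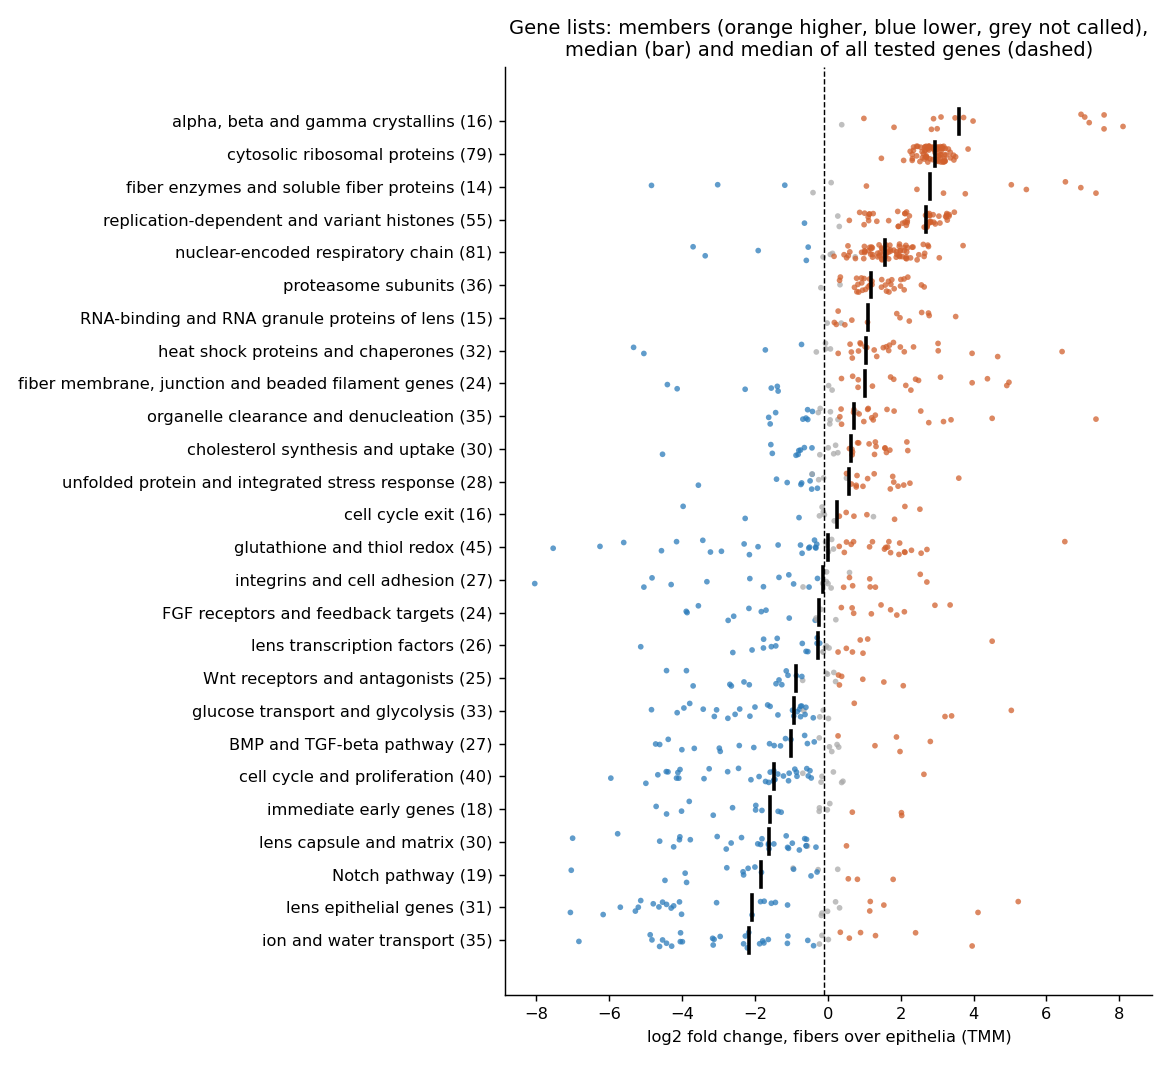
Log2 fold change of fibers over epithelia for the tested members of 26 gene lists (number tested in brackets), ordered by median (bar). Points are orange where called higher, blue where called lower and grey where not called, and the dashed line is the median of all genes, -0.10. Crystallins (3.61) and ribosomal proteins (2.94) lie at the top, and epithelial genes (-2.08) and ion and water transport (-2.17) at the bottom.

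The 10 highest log2 fold changes under the naming rule included Cryga, Cryge, Crygf and Dnase2b, and 6 genes at or near 0 in epithelia. Fbxw21, an F-box gene, was at 0.0322, 0.0986, 0.113 and 0.0288 CPM in epithelia and 15.4, 12.3, 10.9 and 12.6 CPM in fibers. The transcription factor Rfx4 was at 7.62 to 10.02 CPM in fibers with 5 counts in all epithelial libraries together, and the RNA export factor Nxf7 at 6.15 to 10.5 CPM with 4 counts in epithelia. Fam3b, a secreted protein, was at 5.87 to 10.7 CPM with 1 count in epithelia, in library 1, a ratio of 937 with a 95% counting interval of 167 to 37070.0. Dpys and Rhox3e were far higher in fiber library 1 than in the other fiber libraries. They stood at 34.2, 2.19, 5.58 and 2.93 CPM and 19.4, 2.497, 1.57 and 1.13 CPM in fibers, with 2 counts and 1 count in epithelia. Their log2 changes were 9.09 and 8.91, and 7.53 and 7.20 without fiber library 1, where both were still called.

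The 10 lowest were led by photoreceptor genes, among them Gnat1, rod transducin, at 50.9, 13.1, 8.59 and 27.7 CPM in epithelia and 0.154, 0.131, 0 and 0 CPM in fibers. Prph2, also known from photoreceptors, was at 26.5, 5.096, 3.82 and 15.5 CPM in epithelia and held 3 counts in the fiber libraries together. Pdc and Nrl had 0 counts in all 4 fiber libraries and were at least 120.3-fold and 95.7-fold lower there, with a floor of 3 counts over the group. For these 4 genes epithelial library 1 was the highest, and library 4 the next. Of 22 tested markers of retinal neurons and photoreceptors 20 were lower in fibers and none higher, and their summed level was 203 to 458.5 CPM in epithelia and 30.3 to 45.1 CPM in fibers. The part of retinal RNA in these differences was not tested. Another 5 of the 10 were Cyp2j13, Cilp2, Slc26a4, Bst1 and Adgrb1, with 1 to 4 counts in fibers together and means of 3.57 to 8.40 CPM in epithelia. Slc26a4 was uneven in epithelia, at 9.71, 0.658, 9.67 and 0.720 CPM, so its fold change came mainly from epithelial libraries 1 and 3.

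Markers of other neighbouring cells were then examined. Of 12 tested markers of pigmented iris and ciliary body 9 were lower and 1, Mitf, higher, with summed levels of 202 to 239.6 CPM in epithelia and 50.2 to 62.4 CPM in fibers; Oca2 went from 91.7 ± 13.4 to 1.35 ± 1.32 CPM, while Mlana and Slc45a2 were below 1 CPM in both. Corneal and conjunctival markers were lower for 4 of 4, at 73.7 to 102 CPM in epithelia and 5.11 to 7.62 CPM in fibers, with Krt12 at 0 in fibers. Red blood cell markers summed to 1.95 to 12.7 CPM in epithelia and 0.351 to 0.615 CPM in fibers, with Slc4a1 at 0 in all libraries. Of 4 tested immune markers 1 was lower and 3 were not called, and immune markers summed to 3.09 to 14.6 CPM and 1.32 to 2.85 CPM, with C1qa and Cd74 at 0 in fibers. Blood vessel markers were lower for 4 of 5 tested, at 185 to 249.8 and 104 to 146 CPM, nearly all of it Pdgfrb. Muscle and stroma markers were at 300.4 to 376 CPM in epithelia and 844 to 898 CPM in fibers, but 5 of the 8 tested were lower and 3 higher, with a median of -0.77. With total counts 5 were called lower and only 1 higher. The higher sum came from Acta2, smooth muscle actin, which was 7.28-fold higher, with Acta1 and Ckm also higher, while Col1a2, a collagen of stroma, stood at 12.5 CPM in epithelia and 0.189 CPM in fibers. The part of such cells in the results above was not tested.

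Fiber library 1 differed from the mean of the other fiber libraries by at least 2-fold in 219 genes above and 100 genes below, of 12019 considered. For fiber libraries 2, 3 and 4 these counts were 5 and 25, 42 and 14, and 3 and 37. By list, its median deviation was 1.60 on the log2 scale for crystallins, 0.49 for soluble fiber proteins and 0.38 for the respiratory chain, and between -0.19 and 0.33 for the other 23 lists. Without it 5336 genes were higher and 5714 lower of 14829 tested.

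The same tissue difference was then examined in LEGSKO lenses, whose 8 untreated libraries are separate from those used above. Of the WT genes called higher in fibers, 4855 of 5087 tested (95.4%) were also called higher in LEGSKO and none lower, where 37.6% of all genes were called higher. Of those called lower, 5163 of 5535 (93.3%) were also lower and 1 was higher, where 41.3% of all genes were called lower. As shares of the LEGSKO lists these were 89.8% and 86.9%. In LEGSKO+BSO the shares were 96.3% of 5100 genes and 93.6% of 5600 genes, with 1 and 6 called in the opposite direction, where 39.1% and 42.3% of all genes were called higher and lower. The difference of the tissue differences passed an adjusted p of 0.05 for 16 of 15560 genes between LEGSKO and WT (0.103%) and for 43 between LEGSKO+BSO and WT (0.276%). These counts rested on single libraries: they were 46 and 94 without WT fiber library 1, the second was also 94 without WT epithelial library 4, and they ranged from 4 to 46 and from 12 to 94 with each library left out. The smallest adjusted p in both conditions belonged to Tacr3, a neurokinin receptor, and Manba, a lysosomal mannosidase. Mean Tacr3 levels in epithelia were 0.0957 CPM in WT, 16.3 CPM in LEGSKO and 13.02 CPM in LEGSKO+BSO, against 0.385, 0.3997 and 0.444 CPM in fibers, and it was too low to be tested within WT. Its tissue difference changed by -7.36 ± 0.78 (SE) in LEGSKO (adjusted p = 2.02e-05) and by -6.93 ± 0.75 in LEGSKO+BSO (adjusted p = 1.60e-05). Manba stood at 20.9 CPM in WT epithelia and 12.02 CPM in WT fibers, and its tissue difference changed by 1.38 ± 0.16 and 1.502 ± 0.16 (adjusted p = 9.35e-05 and 1.60e-05). Both genes were called with each library left out. Hmgn3 was also called in both, and Aldh1a1 in LEGSKO+BSO. In WT, Hmgn3, a nucleosome-binding protein, stood at 89.7, 75.9, 76.7 and 78.8 CPM in epithelia and at 901, 489, 536 and 465 CPM in fibers (log2 2.90 ± 0.20). Its tissue difference changed by -1.04 ± 0.19 (SE) in LEGSKO (adjusted p = 0.0362) and by -1.04 ± 0.19 in LEGSKO+BSO (adjusted p = 0.0239), and by -0.74 and -0.75 without WT fiber library 1. Leaving out each library in turn gave adjusted p of 0.00461 to 0.0921 in LEGSKO and 0.00263 to 0.0517 in LEGSKO+BSO, so some of these fits lost the call. Aldh1a1, lower in WT fibers by -3.02, differed by 1.03 ± 0.18 in LEGSKO+BSO (adjusted p = 0.0111, and 0.00118 to 0.0307 with each library left out). In LEGSKO its difference was 0.74 ± 0.18 and was not called (adjusted p = 0.116, and 0.0173 to 0.254 with each library left out).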

How the data were processed

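The authors deposited raw counts for 24415 Entrez genes in 24 libraries. The submitters' processing notes name TopHat, DESeq, bcl2fastq and CASAVA 1.8, with the genome builds mm10 and GRCm38. How reads were counted, with which annotation, strand setting and kit, is not stated in the sources used, and overlapping genes or antisense partners are therefore uncertain. Of the identifiers 24334 matched a symbol in a RefSeq table of the same build, and the rest held 0.914% of counts.

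For the 8 wild-type libraries the test was that of edgeR 4.0.16 (R 4.3.3): filterByExpr (minimum count 10, minimum total 15), TMM scaling, a two-sided quasi-likelihood F test and Benjamini-Hochberg adjustment over 14397 genes at 0.05. CPM carry TMM factors and are given per library or as mean ± SD. A standard error is the log2 fold change divided by the square root of F. The common biological coefficient of variation was 16.3%. Total counts of 20.6 to 30.01 M per library set the precision. Tissue differences between conditions were tested as interactions over 24 libraries. DESeq2 1.42.0, other scalings, no filter, a replicate block and each library left out were tried as alternatives. Exon lengths were union exon lengths of the GENCODE M21 annotation. No 2 libraries of a group were duplicates (chi-square of 6.67 to 345 per degree of freedom).

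On simulated counts of 14578 genes the tissue test recovered 45.5%, 89.4% and 100% of genes changed 1.5-fold, 2-fold and 4-fold, with 4 unchanged genes called. The interaction test of LEGSKO against WT recovered 4.76%, 56.1% and 78.8% of such genes among 15439, with 5 unchanged called. The tissue simulation gave fibers and epithelia the same mean levels apart from the changed genes, and both simulations used the same spread for all genes. In the real libraries 74.8% of genes were called and scaling factors differed between tissues. The tissue simulation therefore does not measure scaling errors or false calls in the real comparison.

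The comparison, the gene lists and the tests were chosen with earlier results of these data known. By the naming rule, crystallins and 23 lens genes were always named. To these were added the 10 highest and 10 lowest fold changes, and the 2 highest and 2 lowest members of each list, among genes that were called, had groups without overlap and reached 1 in average log2 CPM, leaving out Gm, Rik and clone symbols. The rule gave 141 genes, and not all are described. Some genes are not reported here. Other list members named, such as Lgsn, Ldha, Hspa8 and Clu, and the interaction genes were chosen after their values were seen.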

Additional observations from a re-analysis of the deposited data

Results flagged for a closer look

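A library was taken as standing apart where its gap to the nearest of the other 3 was too large a share of the group's range by Dixon's test at the 95% level, which chance alone gives for about 1 in 20 groups. Fiber library 1 stood above the others in crystallin share, at 50.1%, and below them in ribosomal protein share, at 4.69%, and respiratory chain share, at 0.568%, though its respiratory share of counts outside crystallins was the highest of the 4, at 1.14%. All 16 crystallin genes were above the other fiber libraries there, in CPM: Cryaa (266688), Cryab (43616), Cryba1 (73019.5), Cryba2 (36642), Cryba4 (35700.1), Crybb1 (23709.7), Crybb2 (181109), Crybb3 (26978), Cryga (5269.7), Crygb (109291), Crygc (88303), Crygd (70668), Cryge (21776), Crygf (13138), Crygn (191) and Crygs (69509). Fiber library 1 also stood above the rest in CPM for the fiber and epithelial list genes Bfsp1 (31041), Bfsp2 (10252), Birc7 (905), Dnase2b (519.8), Fabp5 (19952), Lctl (6143), Lgsn (35350.1) and Mip (31910.2), and for Caprin2 (339), Cat (197), Gabarapl1 (586), Gapdh (2883), Gclc (187), Gmnn (14.7), Hmgn3 (901), Hmox1 (1759), P4ha1 (713), Pgam2 (221), Plaat3 (1096) and Rbm24 (375). It stood below them for Adam10 (269) and Cdkn2b (6.07).

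Epithelial library 1 stood above the other epithelial libraries in respiratory chain share, at 0.511%, and in CPM for Col4a2 (6157), Crybb3 (1836), Crygn (109.5), Gapdh (1381) and Pdgfra (315). It stood below them for Pdgfrb (159) and Ppp1r15a (13.8). Low values were those of Gmnn (0.707) in epithelial library 3, Cox7c (32.5), Crybb2 (11905), Gclm (25.02) and Tgfb3 (9.33) in epithelial library 4 and Sox1 (100.2) in fiber library 2. For genes near 0, a few counts in 1 library had the same effect: Cyp2j13 in fiber library 1 (0.0768 CPM), Prph2 in fiber library 1 (0.230 CPM), Dpys in epithelial library 1 (0.0643 CPM), Fam3b in epithelial library 1 (0.0322 CPM), Rhox3e in epithelial library 1 (0.0322 CPM), Cilp2 in fiber library 2 (0.0438 CPM) and Slc26a4 in fiber library 3 (0.104 CPM). Fiber library 1 was also high for Dpys (34.2) and Rhox3e (19.4) CPM.

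The tissue difference differed between conditions, by the interaction test of edgeR, for Hmgn3 in LEGSKO (log2 -1.04) and in LEGSKO+BSO (log2 -1.04), and for Aldh1a1 in LEGSKO+BSO (log2 1.03). It also differed, with smaller adjusted p, for Tacr3 (log2 -7.36 in LEGSKO and -6.93 in LEGSKO+BSO) and Manba (log2 1.38 and 1.502). These 4 are some of the 16 and 43 genes called. Hmgn3 was one of the genes for which WT fiber library 1 was high, and its values without that library were -0.74 and -0.75. The part of that library in the difference was otherwise not tested.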

How the results depend on the processing

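Leaving out each wild-type library in turn gave 10429 to 11050 called genes, 4979 to 5336 higher in fibers and 5446 to 5714 lower. Crystallin, ribosomal protein and respiratory chain shares differed by 15.98 to 23.5, 4.49 to 5.39 and 0.197 to 0.250 percentage points. For the last, leaving out any 1 epithelial library gave p = 0.0571 in the exact permutation test. With total counts 1641 genes were higher (1018 at least 2-fold) and 10164 lower (8160 at least 2-fold). With TMM these counts were 5109 (2922) and 5658 (3184). The fits differed only in the scaling factors, and which scaling is closer to levels per cell was not tested.

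The counts of interaction genes were least stable: 16 for LEGSKO and 43 for LEGSKO+BSO became 83 and 293 with DESeq2, and 4 to 46 and 12 to 94 with 1 library left out, highest without WT fiber library 1 (both) and WT epithelial library 4 (the second). With the replicate number as a block, 10775 genes were called for the tissue difference (5100 higher, 5675 lower) and 10 for the LEGSKO interaction. Whether the titles' numbers tie epithelial to fiber libraries is not stated. Deviations of same-numbered epithelia and fibers correlated at 0.25, 0.08, 0.07 and 0.05. Epithelial library 1 correlated with fiber libraries 2 to 4 at -0.15, -0.12 and -0.10. Fiber library 1 correlated with epithelial libraries 2 to 4 at -0.10, -0.05 and -0.12. Of the 8 libraries epithelial library 4 and fiber library 4 correlated better with another number, at 0.07 with fiber library 2 and 0.065 with epithelial library 2. Among the genes followed through the alternative runs the block changed no call.

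The sign reversed with total counts for Cdh2 (-0.42), Cryab (-0.27), Fgfr2 (-0.72), Fgfr3 (-0.42), Gapdh (-0.43), Jag1 (-0.26), Maf (-0.28), P4ha1 (-0.64), Prox1 (-0.15), Sox1 (-0.018), Sox2 (-0.56), Wnt7b (-0.14) and Crygn (-1.001). Among these, Cryab, Fgfr3, Jag1, Maf, Prox1 and Sox1 were not called with total counts, while Cdh2, Fgfr2 and Crygn were called lower. With each library left out Crygn ranged from -0.89, without fiber library 1, to 1.05, without epithelial library 1, and it was -0.90 without fiber library 1 and with crystallins out of the scaling. No other gene followed through the alternative runs reversed. Some genes named in this report were not followed. Among them is Dkk3, whose share of counts fell from 0.371% in epithelia to 0.1998% in fibers, though its log2 change with TMM factors was positive. Bnip3l, Etv5, Gclc and Itga6 lost their calls with total counts, Cryab, Fgfr2 and P4ha1 with upper quartile scaling, and Cryab also with DESeq2. Cdkn1b was called lower under upper quartile scaling and total counts.

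Depth limits the genes with 0 to 5 counts in a tissue, whose fold changes are given as bounds or counts.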

Other observations

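Some of the 15 genes with the most counts in epithelia were not described above. They are given as shares of counts, which carry the shift of all genes seen with total counts, and with the log2 change under TMM scaling. Igfbp7, a secreted binding protein of insulin-like growth factors, took 0.657% ± 0.0405 of counts in epithelia (SD, n = 4) and 0.0187% in fibers (log2 -4.01). Ctsl, the lysosomal protease cathepsin L, took 0.429% ± 0.0368 and 0.0175% (log2 -3.52), and App, the amyloid precursor protein, 0.373% ± 0.0207 and 0.0498% (log2 -1.81). Dkk3, a secreted protein of the dickkopf family, took 0.371% ± 0.0440 and 0.1998%, and was not called with TMM scaling (log2 0.21, edgeR adjusted p = 0.112). Eef1a1, the translation elongation factor, stood at 0.384% ± 0.0196 in epithelia and 0.817% in fibers (log2 2.21). Igfbp7 and Dkk3 are members of the epithelial list. These genes were chosen after their values were seen.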
